A study of Arabidopsis thaliana with 72 samples.

Results

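Shoots of Arabidopsis thaliana seedlings were compared 12 h after t-chalcone or 0.1% ethanol (EtOH) was added, over all genes. The comparison rested on 6 libraries, 3 with t-chalcone and 3 with EtOH, out of 72 deposited columns, of which 66 were distinct libraries of shoots and roots at 0 to 24 h. All 22884 genes of the table entered it. Seedlings were 14 days old and stood on agar plates with 1% sucrose in days of 16 h light and 8 h dark. Solution was added at 8 mL per plate 7 h after lights on, with t-chalcone at 21 μM. The 12 h samples were therefore taken 19 h after lights on, 3 h into the dark. The sources used here do not give the ecotype or whether the t-chalcone solution also held EtOH. Nothing in the labels says that the 3 libraries of a group came from separate plates, so the spread that p-values cover could be technical. That spread was estimated within the groups of all 33 shoot libraries together, not from the 6 compared alone. For the comparison with roots it was taken from all 66. Replicate numbers only name a library. Values are normalised counts, that is, read counts per gene that the authors divided by a size factor per library.

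t-Chalcone is an aromatic ketone with an electron-poor double bond, the backbone from which plants build flavonoids, and it inhibits seedling growth when given from outside. In a leaf at night, starch stored during the day is broken down in the chloroplast to maltose and glucose, and transcripts of the enzymes follow the day under control of the circadian clock. Sugar status is read by the kinase SnRK1, under which a set of low-sugar and dark-induced genes is transcribed when carbon runs short. Reactive foreign compounds are conjugated to glutathione, a sulfur-containing tripeptide, or to glucose.

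EtOH replicate 2 stood apart from the other 5 libraries before any comparison was made. Whole numbers recovered from its values summed to 0.246 M, against 9.13 to 26 M in the other 5, and its lowest value was 40.5, held by 77.8% of all genes. Spearman correlations were 0.983 to 0.994 among the 5 deep libraries and 0.511 to 0.517 between them and EtOH replicate 2. Of 1485 genes at 1000 or more in both deep EtOH libraries, 208 stood at the lowest value in EtOH replicate 2, where a value of 1000 corresponds to a whole number of 24.7. High genes departed as well: LHCB6, a light-harvesting gene, read 29631 and 24715 in EtOH replicates 1 and 3 and 171054 in replicate 2. A gene at 40.5 there cannot be told from a gene without reads, so each result is given with all libraries and without EtOH replicate 2. The 13 genes used as root markers summed to 376 to 437 with t-chalcone, to 522 and 210 in EtOH replicates 1 and 3 and to 526 in replicate 2, against 1402 to 12118 in root libraries. The 43 photosynthesis genes summed to 884550 to 1870058 in the 6 libraries and to 2259 to 19188 in root libraries. In whole shoots, a change in the share of a cell type and a change of RNA per cell cannot be told apart.

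With all libraries, 118 genes were higher and 56 lower with t-chalcone at an adjusted p under 0.05 (limma, trend option, on log2(value + 1), two-sided, Benjamini-Hochberg over all 22884 genes), which is 0.516% and 0.245% of the genes tested. Without EtOH replicate 2, 159 of 19762 genes were higher and 135 lower, or 0.805% and 0.683%. Called in both fits were 93 genes higher and 40 lower, 0.471% and 0.202% of the genes in both. They made up 78.8% of the increases with all libraries and 58.5% of those without the shallow library, and for decreases 71.4% and 29.6%. No gene was called in opposite directions by the fits. All 93 and all 40 were also called by edgeR's quasi-likelihood test on the recovered whole numbers without EtOH replicate 2, which called 2.19% of all genes higher and 2.97% lower, and by limma without any library under 0.5 M, which called 1.97% higher and 2.37% lower. For the genes called with all libraries, the median log2 fold change was 1.54 for increases with all libraries and 0.96 without EtOH replicate 2, and for decreases it was −1.42 and −1.04. Of the 118 genes, 87 stood at the lowest value in EtOH replicate 2, and of the 56, 8 did, beside 77.8% of all genes. Without EtOH replicate 1 or 3 instead, the counts were 6426 and 2450 or 6459 and 2476, and without t-chalcone replicate 1, 2 or 3 they were 16 and 6, 53 and 15 or 68 and 36; the cause was not tested. In a fit of only the 6 libraries at 12 h, limma called 0 genes higher and 0 lower. There 489 of 18415 genes tested had an unadjusted p under 0.05, a share below 0.05 itself.

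**Figure D1:**
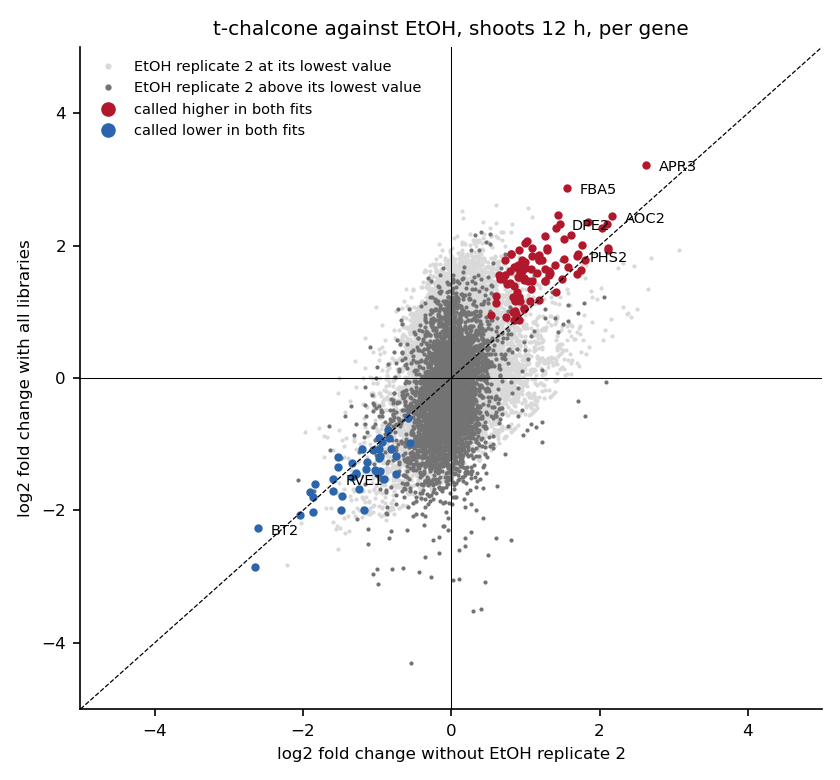
Each point is a gene, with the log2 fold change of t-chalcone against EtOH at 12 h in shoots without EtOH replicate 2 on the x axis and with all libraries on the y axis. Light points are genes that EtOH replicate 2 read at its lowest value, dark points the others, red and blue points the 93 and 40 genes called higher and lower in both fits, and the dashed line marks equal values. Points spread further along the y axis than the x axis, and the called genes lie in the upper right and lower left, with APR3 at 2.63 and 3.22 and BT2 at −2.6 and −2.27.

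Of the starch metabolism genes, 7 rose with t-chalcone in both fits, 6 of them of breakdown and 1, APL3, of synthesis. Of 20 starch genes, 7 were higher and 0 lower with all libraries, and 8 were higher and 1 lower without EtOH replicate 2. Over all genes, 0.516% were higher and 0.245% lower, and then 0.805% and 0.683%. The 7 were SEX1, SEX4, AMY3, PHS1, PHS2, DPE2 and APL3. The median of the list was 1.02 with all libraries and 0.53 without the shallow one, against 0.09 and 0.01 over all genes. All 3 t-chalcone libraries lay above both deep EtOH libraries in 14 of the 20, and this held for 20% of all genes.

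PHS1 and PHS2 are the plastid and cytosolic glucan phosphorylases. PHS1 read 784, 780 and 745 with t-chalcone and 233, 81 and 266 with EtOH. The t-chalcone libraries were 3.08 times the mean of EtOH replicates 1 and 3, and the groups did not overlap. All t-chalcone libraries lay above all 3 EtOH libraries in 11.8% of all genes and below them in 6.39%. The rule that names the 15 largest increases and decreases required this, so for those genes it adds no support. The log2 fold change of PHS1 was 2.16 ± 0.27 (SE; adjusted p = 8.79e-05, limma) with all libraries and 1.62 ± 0.15 (adjusted p = 3.03e-07) without EtOH replicate 2. PHS2 read 419, 338 and 330 with t-chalcone and 104, 81 and 117 with EtOH. Here the shallow library lay near the deep ones, and the log2 fold change was 1.85 ± 0.19 (adjusted p = 3.44e-06) with it and 1.7 ± 0.16 (adjusted p = 3.03e-07) without it.

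DPE2, the cytosolic enzyme that takes maltose apart after its export, read 717, 700 and 663 against 239, 40.5 and 263. AMY3, a plastid alpha-amylase, read 668, 656 and 628 against 246, 40.5 and 243. In both genes the deep EtOH libraries lay close together and EtOH replicate 2 was at its lowest value. DPE2 changed by 2.33 ± 0.37 (adjusted p = 0.00174) with all libraries and by 1.46 ± 0.14 (adjusted p = 3.06e-07) without the shallow library, and AMY3 by 2.26 ± 0.38 (adjusted p = 0.0024) and 1.41 ± 0.17 (adjusted p = 1.25e-05), on the log2 scale by limma.

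SEX1, the glucan water dikinase that phosphorylates starch granules at the start of breakdown, read 586, 553 and 519 against 231, 40.5 and 291, a log2 fold change of 1.09 ± 0.16 without the shallow library (adjusted p = 0.000308, limma; 1.97 with it, adjusted p = 0.00798). SEX4, the phosphatase that removes those phosphates, read 136, 144 and 141 against 75.2, 40.5 and 78.2. Kinase and phosphatase were thus higher together, SEX4 by 0.86 ± 0.16 without the shallow library (adjusted p = 0.00299). APL3, a large subunit of the ADP-glucose pyrophosphorylase that makes starch, read 221, 153 and 101 against 73.1, 40.5 and 68.2 and changed by 1.08 ± 0.27 (adjusted p = 0.03). It belongs to synthesis, as does ADG1, the small subunit, which was called only without the shallow library: 2840, 2755 and 2500 against 1836, 81 and 1930, or 0.52 ± 0.13 (adjusted p = 0.0462; 0.0952 with all libraries).

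Beta-amylases, which release maltose, did not share this direction. BAM9, a catalytically inactive family member, read 1389, 1220 and 1306 against 3272, 2349 and 2922 and was lower without the shallow library, by −1.25 ± 0.29 (adjusted p = 0.0224; 0.0675 with all libraries). BAM3, the main plastid beta-amylase, read 2791, 2117 and 2125 against 3962, 3037 and 4361 and missed the threshold (−0.84 ± 0.24, adjusted p = 0.0726 without the shallow library). GBSS1, the granule-bound synthase of amylose, showed what the shallow library does to a fold change: 2669, 2263 and 2064 with t-chalcone, 2502 and 2633 in EtOH replicates 1 and 3 and 40.5 in replicate 2, a log2 fold change of 1.84 with all libraries and −0.15 without it, neither past the threshold.

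**Figure D2:**
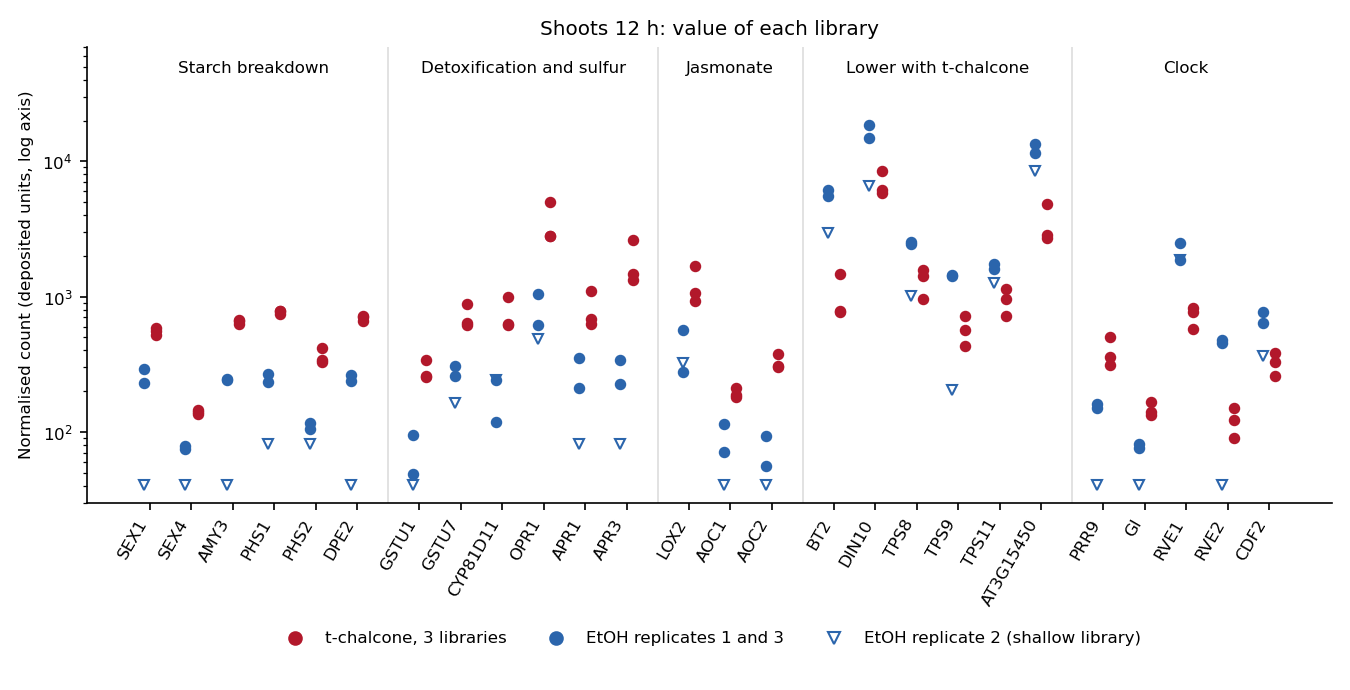
Normalised counts of 26 genes in each of the 6 libraries at 12 h in shoots, on a log axis; red points are t-chalcone, filled blue points EtOH replicates 1 and 3, and open triangles the shallow EtOH replicate 2. For the starch, detoxification, sulfur and jasmonate genes all red points lie above all blue ones, and for BT2, AT3G15450, TPS11 and RVE1 they lie below, while for TPS8, TPS9, RVE2 and other genes the triangle falls away from the filled blue points.

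The stretch before the PHS1 gene is shown because matches to several of the motifs searched lie in it. It covers 250 bases upstream of the annotated start in RefSeq's TAIR10.1 assembly, chr3:11252557-11252806, plus strand; the submitters' processing notes name TAIR10 and the deposited table gives no coordinates. Capitals mark the evening element AAATATCT and 3 copies of the G-box CACGTG, of which 1 overlaps the ABRE form ACGTGTC read on the other strand and another the form ACGTGGC.
PHS1: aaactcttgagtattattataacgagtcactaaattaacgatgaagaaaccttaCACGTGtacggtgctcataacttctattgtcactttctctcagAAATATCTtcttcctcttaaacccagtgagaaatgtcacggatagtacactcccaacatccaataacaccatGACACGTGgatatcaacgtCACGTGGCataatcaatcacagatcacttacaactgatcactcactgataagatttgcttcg
The stretch before BT2, the first of the 15 largest decreases, lies at chr3:17910739-17910988 on the minus strand and is printed in the direction of the gene. It holds the evening element on the opposite strand, 178 bases before the start, and a heat shock element pair GAANNTTC, both in capitals.
BT2: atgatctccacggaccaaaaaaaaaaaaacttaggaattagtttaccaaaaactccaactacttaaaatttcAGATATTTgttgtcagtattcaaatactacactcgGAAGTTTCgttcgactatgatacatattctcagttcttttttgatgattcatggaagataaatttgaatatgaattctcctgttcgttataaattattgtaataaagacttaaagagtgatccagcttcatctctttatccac
The evening element was found on either strand in 11 of the 93 genes called higher in both fits (11.8%), in 2 of 39 called lower with such a stretch (5.13%) and in 4.9% of all 22707 genes with such a stretch. Of the 7 starch genes called higher in both fits, PHS1 was the 1 with an evening element, and 2 held a G-box, which was found in 6.45% of the 93 and in 7.17% of all genes. Other motifs departed too. Of the 93, 19.4% held the W-box TTGACC and 4.3% GAANNTTC, against 12.3% and 9.45% of all genes. Of the 39, 10.3% held ACGTGGC and 7.69% the unfolded protein response element TGACGTGG, against 3.74% and 1.44%. These shares were not tested. A match describes letters and is not a binding site.

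Some genes of the low sugar and dark response were lower with t-chalcone, and apart from BT2 they were called only without the shallow library. Of 18 such genes, 1 was higher (TPS5) and 1 lower (BT2) with all libraries, and 0 were higher and 8 lower without EtOH replicate 2. Over all genes, 0.516% were higher and 0.245% lower, and then 0.805% and 0.683%. The median was −0.44 with all libraries and −0.9 without the shallow one, against 0.09 and 0.01 over all genes. In 12 of the 18 all t-chalcone libraries lay below both deep EtOH libraries, as did 18.3% of all genes.

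BT2, a BTB and TAZ domain scaffold protein that responds to sugar and nitrogen, read 775, 788 and 1477 with t-chalcone and 6147, 2956 and 5575 with EtOH. The groups did not overlap, as the rule for the largest decreases required, and t-chalcone was at 0.173 of the mean of EtOH replicates 1 and 3. Its log2 fold change was −2.27 ± 0.32 (adjusted p = 0.000334, limma) with all libraries and −2.6 ± 0.31 (adjusted p = 1.25e-05) without EtOH replicate 2. Its relative BT5 read 565, 735 and 905 against 2520, 1579 and 2664, and fell by 1.6 on the log2 scale (adjusted p = 0.0173) and without the shallow library by 1.84 (adjusted p = 0.00374).

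DIN10, a raffinose synthase family member named for its induction in the dark, read 6164, 5815 and 8452 against 18455, 6601 and 14970. EtOH replicate 2 lay inside the range of t-chalcone, and the call depended on it: −0.86 ± 0.28 (adjusted p = 0.117, limma) with all libraries and −1.31 ± 0.25 (adjusted p = 0.00444) without it. TPS8, TPS9, TPS10 and TPS11, trehalose-phosphate synthase-like proteins of class II, which respond to carbon supply, were all lower without the shallow library, by −0.95, −1.35, −0.93 and −0.86 with adjusted p of 0.0269, 0.00622, 0.0284 and 0.0195. TPS9 read 430, 570 and 713 against 1423, 202 and 1441. TPS10 read 336, 392 and 491 against 743, 40.5 and 791, and with all libraries its log2 fold change had the other sign, 0.47 (adjusted p = 0.544). AKINBETA1, a beta subunit of SnRK1 itself, read 423, 464 and 665 against 1136, 324 and 918, and was lower by −1.01 ± 0.22 without the shallow library (adjusted p = 0.0125; 0.283 with it). MCCA, which takes part in leucine breakdown, read 684, 581 and 955 against 1750, 40.5 and 1495, with log2 fold changes of 0.6 (adjusted p = 0.531) with all libraries and −1.16 (adjusted p = 0.0325) without the shallow one. ASN1, asparagine synthetase and a usual marker of dark and low sugar, read 2554, 1544 and 4114 against 5935, 2754 and 4603 and missed the threshold in both fits (adjusted p = 0.136 and 0.102). TPS5, of the same class as TPS8, went the other way with all libraries: 247, 153 and 153 against 115, 40.5 and 108, a log2 fold change of 1.17 (adjusted p = 0.0375), and 0.69 (adjusted p = 0.073) without the shallow library.

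Several of the largest decreases were genes with no symbol in the reference. AT3G15450, annotated as an aluminum induced protein with YGL and LRDR motifs, read 2690, 2837 and 4842 against 13414, 8423 and 11606. All 3 EtOH libraries stood above the t-chalcone ones, as the rule required. The log2 fold change was −1.72 ± 0.26 (adjusted p = 0.000862, limma) with all libraries and −1.91 ± 0.27 (adjusted p = 0.000226) without EtOH replicate 2. AT5G22920, a zinc finger protein of the CHY and RING types, read 1098, 1208 and 1809 against 5129, 6803 and 4607, or −2.02 ± 0.27 (adjusted p = 0.000206) and −1.86 ± 0.28 (adjusted p = 0.000352). AT2G20670, a DUF506 protein, read 1364, 1750 and 2485 against 5439, 9476 and 4646, with −1.78 (adjusted p = 0.00172) and −1.47 (adjusted p = 0.00303). AT2G05540, a glycine-rich protein, read 501, 413 and 818 against 1427, 4495 and 1664, and AT5G21940 read 763, 1126 and 1302 against 2569, 5912 and 2357. In these the shallow library was the highest of the EtOH libraries, and without it they fell by 1.48 and 1.24 on the log2 scale (adjusted p = 0.00106 and 0.0341). OXS3, named for oxidative stress tolerance, read 222, 518 and 540 against 1563, 1255 and 1330 and fell by 1.79 (adjusted p = 0.0131) and 1.86 (adjusted p = 0.00942).

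Among the 15 largest decreases named by rule, 11 were also called without EtOH replicate 2, and in 10 of the 15 that library was the highest EtOH value. AT3G54880, a zinc finger protein next to LHCA1 on chromosome 3, read 270, 283 and 405 against 702, 3807 and 722, and AT3G18560 read 103, 84.3 and 94.6 against 181, 648 and 173. Both stayed past the threshold without the shallow library, at −1.18 (adjusted p = 0.0127, limma) and −0.91 (adjusted p = 0.0264). The other 4 did not: DIM1A, a ribosomal RNA dimethylase family member (adjusted p = 0.0421 with all libraries and 0.0899 without replicate 2), HB-12, a homeobox factor linked to abscisic acid (0.0363 and 0.0545), AT1G50910 (0.0204 and 0.0707) and AT4G28290 (0.0165 and 0.0699). XTH6, a wall-loosening xyloglucan enzyme, was lower in both fits, with 1379, 1267 and 1499 against 2511, 2835 and 2428 and a log2 fold change of −0.91 (adjusted p = 0.0212) and −0.84 (adjusted p = 0.0123), alone among 21 genes of cell wall expansion.

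Some of the detoxification genes rose with t-chalcone, and most did not pass the test. Of 25 members, 7 were higher and 0 lower with all libraries, and 9 were higher and 0 lower without the shallow library. Over all genes, 0.516% were higher and 0.245% lower, and then 0.805% and 0.683%. The median was 1.27 and 0.79, against 0.09 and 0.01 over all genes. Of 40 glutathione transferases, 3 and then 4 were higher and 0 lower, with a median of 0.68 and 0.31.

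OPR1, a reductase of the 12-oxophytodienoate family that acts on electron-poor double bonds and is not the one used for jasmonate, read 5008, 2825 and 2821 with t-chalcone and 612, 486 and 1044 with EtOH. The lowest t-chalcone library was above the highest EtOH library, as the rule for the largest increases required. The log2 fold change was 2.33 ± 0.39 (adjusted p = 0.00243, limma) with all libraries and 2.1 ± 0.41 (adjusted p = 0.00493) without EtOH replicate 2. Its neighbour OPR2 read 264, 206 and 217 against 80.3, 81 and 80.6, or 1.49 ± 0.29 (adjusted p = 0.00798) and 1.49 ± 0.3 (adjusted p = 0.00589). The annotated spans of OPR1 and OPR2 overlap on the same strand, so reads there may have been shared between them.

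AER, alkenal reductase, also acts on such bonds, and read 2333, 1757 and 1897 against 799, 202 and 1228 (1 ± 0.22 without the shallow library, adjusted p = 0.0125, limma). AT5G16980, its neighbour and annotated as a zinc-binding dehydrogenase, read 348, 215 and 168 against 47.2, 40.5 and 96.7 (1.77 ± 0.4, adjusted p = 0.0175). CYP81D11, a cytochrome P450 that responds to foreign compounds, read 993, 626 and 619 against 118, 243 and 240, and was higher by 1.93 ± 0.4 (adjusted p = 0.0125) and 2.11 ± 0.41 (adjusted p = 0.00564). Among glucosyltransferases, UGT73B5 read 532, 457 and 310 against 95.2, 40.5 and 142 (1.85 ± 0.38, adjusted p = 0.00722) and UGT75B1 read 2204, 1517 and 1464 against 541, 810 and 751 (1.41 ± 0.31, adjusted p = 0.015). NAC102, a NAC family transcription factor of stress responses, read 1199, 1004 and 1025 against 475, 121 and 681, an increase of 0.91 ± 0.23 (adjusted p = 0.0333), each without EtOH replicate 2. UGT73B3 and the transporter gene ABCG40 passed only without that library (adjusted p = 0.0398 and 0.0481; 0.0536 and 0.141 with it).

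GSTU1 read 338, 257 and 256 with t-chalcone and 48.9, 40.5 and 94.8 with EtOH, a log2 fold change of 2.27 ± 0.33 (adjusted p = 0.000582, limma) with all libraries and 2.03 ± 0.33 (adjusted p = 0.00103) without the shallow one. GSTU7 read 886, 615 and 641 against 257, 162 and 305 (1.33 ± 0.27, adjusted p = 0.006 without it). GSTU19, the most abundant of the family here by normalised count, read 9532, 7587 and 7478 against 4106, 3199 and 5101 (0.83 ± 0.16, adjusted p = 0.00564). GSTU2, beside GSTU1 on chromosome 2, read 54.3, 39.3 and 33.4 against 4.25, 40.5 and 7.11 and was called only without EtOH replicate 2 (adjusted p = 0.00189; 0.0991 with it). Copies that lie side by side may share reads. GSTU20, with 3062, 3156 and 2827 against 1434, 1053 and 2186, and GSTU24, with 994, 530 and 481 against 165, 121 and 310, missed the threshold in both fits.

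The as-1 core TGACGTCA, letters bound in many plants by TGA factors at genes of foreign-compound responses, was found in the 250 bases before 3 of the 93 genes called higher in both fits (3.23%), in 0 of 39 called lower and in 0.524% of all genes. The 3 were GSTU7, AER and AT1G75280, the last singled out after its value was seen (1639, 1161 and 887 against 471, 526 and 580). The stretches of GSTU7 (chr2:12618900-12619149, minus strand) and AER (chr5:5578087-5578336, minus strand) are shown to place the element, 52 and 47 bases before the annotated starts; capitals also mark a W-box TTGACC before GSTU7.
GSTU7: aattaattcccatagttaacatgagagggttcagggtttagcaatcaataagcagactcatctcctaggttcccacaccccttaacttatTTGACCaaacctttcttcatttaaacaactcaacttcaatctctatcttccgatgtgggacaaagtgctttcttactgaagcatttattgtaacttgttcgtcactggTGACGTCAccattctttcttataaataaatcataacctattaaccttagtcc
AER: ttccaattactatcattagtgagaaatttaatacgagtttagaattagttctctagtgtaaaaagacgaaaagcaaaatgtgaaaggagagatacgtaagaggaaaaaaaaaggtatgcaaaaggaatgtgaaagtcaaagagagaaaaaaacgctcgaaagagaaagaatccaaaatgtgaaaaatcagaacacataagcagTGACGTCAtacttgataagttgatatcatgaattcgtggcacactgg

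Few of the sulfur genes passed the test. APR1 and APR3, plastid reductases of adenylylsulfate, were the 2 of 22 sulfur genes called with all libraries, and LSU2 and SERAT2;1 were added without EtOH replicate 2, with 0 lower in either fit. Over all genes, 0.516% were higher with all libraries and 0.805% without EtOH replicate 2. The list's median was 0.78 and 0.77, against 0.09 and 0.01 over all genes. APR3 had the largest log2 fold change among the 15 largest increases with all libraries, with 2614, 1471 and 1316 against 226, 81 and 337. t-Chalcone libraries were 6.4 times the mean of EtOH replicates 1 and 3, and the log2 fold change was 3.22 ± 0.43 (adjusted p = 0.000206, limma) and 2.63 ± 0.39 (adjusted p = 0.000308). APR1 read 1097, 683 and 628 against 209, 81 and 351, or 2.1 ± 0.41 (adjusted p = 0.00798) and 1.52 ± 0.35 (adjusted p = 0.0197). APR2, the third copy, read 3173, 1915 and 1548 against 884, 40.5 and 1213 and missed the threshold (adjusted p = 0.0573 and 0.0713). SERAT2;1, which supplies the carbon skeleton of cysteine, read 1363, 1278 and 1304 against 516, 850 and 581 (1.26 ± 0.25, adjusted p = 0.0057 without the shallow library). LSU2, a small protein induced by low sulfur, read 87.5, 48.2 and 44.5 against 8.93, 40.5 and 14.2 (2.25 ± 0.58, adjusted p = 0.0454). APS1, SIR and GSH1, which act before and after the reductase and in glutathione synthesis, had log2 fold changes of 0.18, 0.17 and 0.27 without the shallow library and adjusted p of 0.902, 0.836 and 0.369. DHAR2, a dehydroascorbate reductase that uses glutathione, read 577, 382 and 355 against 195, 40.5 and 208 and was higher in both fits (1.09 ± 0.2, adjusted p = 0.00289 without the shallow library), the only redox gene of 17 called.

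A lipoxygenase and 2 cyclases of jasmonate synthesis rose. Of 22 jasmonate genes, LOX2, AOC1 and AOC2 were higher in both fits and 0 were lower, beside 0.471% and 0.202% of all genes. AOC2, an allene oxide cyclase, read 379, 309 and 300 against 55.7, 40.5 and 92.9, with log2 fold changes of 2.44 ± 0.25 (adjusted p = 3.44e-06, limma) and 2.17 ± 0.22 (adjusted p = 4.17e-07). LOX2, the plastid lipoxygenase of the pathway, read 1688, 926 and 1064 against 278, 324 and 561, or 1.68 ± 0.32 (adjusted p = 0.00688) and 1.58 ± 0.33 (adjusted p = 0.00812). AOC1 read 211, 186 and 181 against 71, 40.5 and 114 (1.09 ± 0.27, adjusted p = 0.033 without the shallow library). AOC1 and AOC2 are neighbours and near copies, and reads may have been split between them. AOS, the step between LOX2 and the cyclases, read 790, 650 and 782 against 402, 81 and 514 (adjusted p = 0.0686 and 0.22). VSP2 and JAZ10, which respond to the hormone, read 575, 296 and 347 against 246, 40.5 and 222 and 37.2, 17.1 and 30.6 against 20.8, 40.5 and 15.2, with adjusted p of 0.104 and 0.72 with all libraries.

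In the circadian clock, PRR9 and GI were higher and RVE1 was lower in both fits. Of 33 clock genes, 2 were higher and 3 lower with all libraries, and 2 were higher and 4 lower without EtOH replicate 2. Over all genes, 0.516% were higher and 0.245% lower, and then 0.805% and 0.683%. PRR9, a pseudo-response regulator of the morning, read 500, 355 and 314 against 150, 40.5 and 161 (1.29 ± 0.33, adjusted p = 0.0426, limma, without the shallow library; 1.93, adjusted p = 0.0125 with it). GI, the evening protein gigantea, read 167, 140 and 132 against 76.5, 40.5 and 80.6 (0.88 ± 0.17, adjusted p = 0.00493). RVE1, a MYB-like factor that links the clock to auxin, read 573, 767 and 823 against 2480, 1863 and 1852. Here all 3 EtOH libraries were close, and the log2 fold change was −1.52 ± 0.3 (adjusted p = 0.0106) and −1.59 ± 0.31 (adjusted p = 0.00538). RVE2, of the same family, read 89.5, 122 and 151 against 480, 40.5 and 453, with −0.81 (adjusted p = 0.283) and −1.97 ± 0.34 (adjusted p = 0.00173). RVE4 and CDF2 were likewise lower only without the shallow library (−0.66 and −1.13, adjusted p = 0.0398 and 0.0105). COL2 and COR27 were lower only with it (adjusted p = 0.0302 and 0.0482; 0.0669 and 0.218 without), and COR27 read 1.01, 0.634 and 0.356 against 4.25, 40.5 and 3.32, where 40.5 is that library's lowest value. CCA1 and LHY, the central morning factors, read 3391 to 3610 against 5606, 1620 and 5141 and 2700 to 3430 against 6822, 3159 and 5840. Both deep EtOH libraries lay above t-chalcone in each, and neither passed the threshold (adjusted p = 0.333 and 0.208 without the shallow library).

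Of the remaining large increases, FBA5, a fructose-bisphosphate aldolase, read 2356, 1912 and 1446 against 773, 40.5 and 517 (1.56 ± 0.33, adjusted p = 0.0101, limma). FUM2, the cytosolic fumarase of daytime fumarate storage, read 763, 650 and 782 against 353, 40.5 and 382 (0.99 ± 0.15, adjusted p = 0.000428). RPP4, a resistance gene of the TIR class within a cluster of similar genes, read 870, 1044 and 977 against 358, 40.5 and 347 (1.44 ± 0.2, adjusted p = 0.000109). AT1G13930, annotated as oleosin-B3-like, read 1503, 1055 and 1131 against 463, 81 and 555 (1.26 ± 0.19, adjusted p = 0.000399). AT5G59540, a dioxygenase family member, read 794, 779 and 655 against 364, 40.5 and 365 (1.02 ± 0.2, adjusted p = 0.00589). These fold changes are without the shallow library, in which 10 of the 15 largest increases and 77.8% of all genes were at the lowest value. All 15 were called in both fits. SOT17, a sulfotransferase of aliphatic glucosinolates, and MYB34, a regulator of indole glucosinolates, were also higher in both (0.98 and 0.93 without the shallow library, adjusted p = 0.0359 and 0.00837), each alone in its list of 13 and 14. Called only without the shallow library were NIA2, a nitrate reductase, and LBD38, a repressor of nitrate response, both lower (−0.79 and −0.76, adjusted p = 0.0376 and 0.0411), PES, a ribosome assembly factor, lower (−0.54, adjusted p = 0.0475), and PORC, a chlorophyll synthesis enzyme, higher (0.69, adjusted p = 0.0128).

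**Figure D3:**
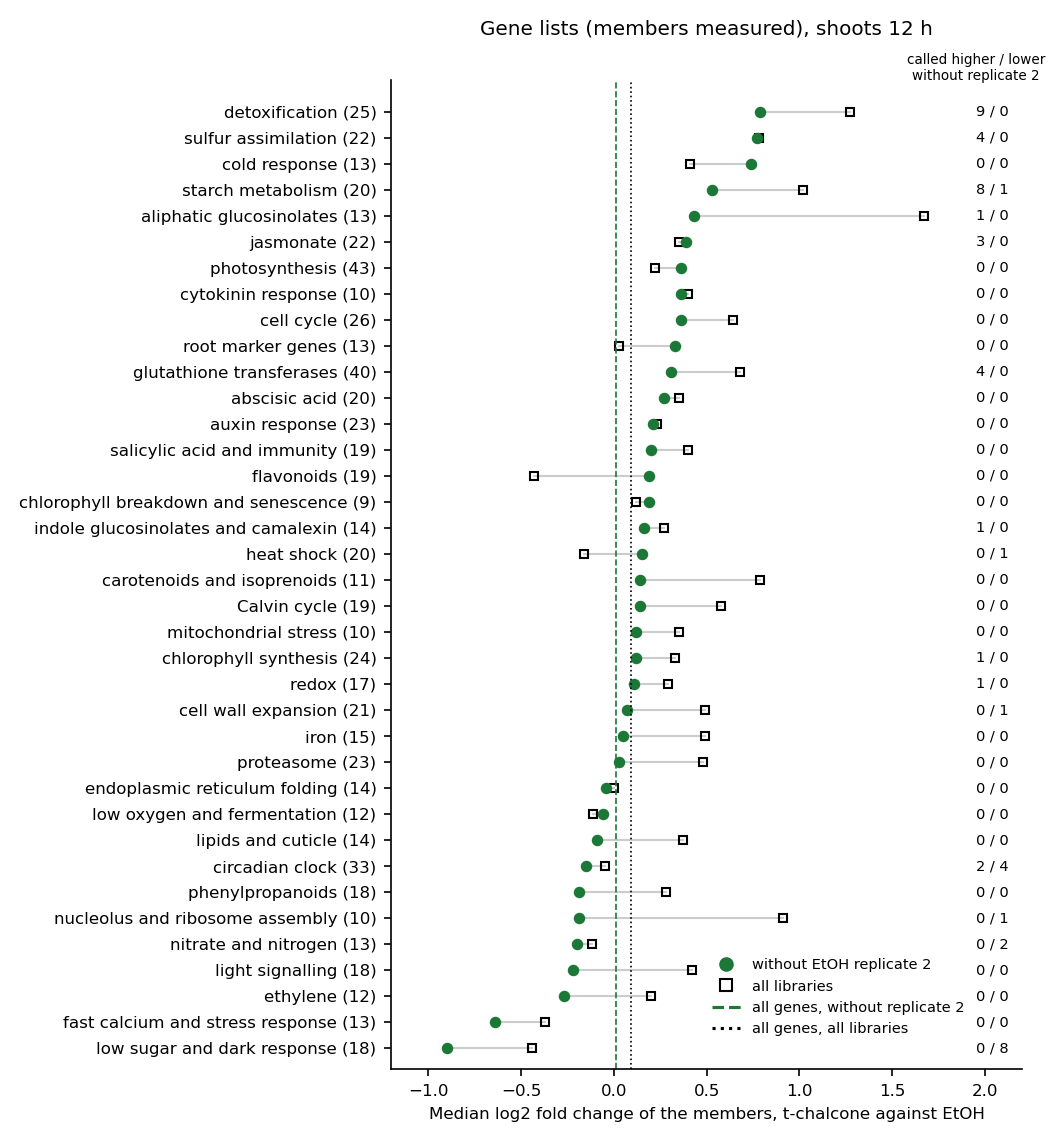
Median log2 fold change of t-chalcone against EtOH over the measured members of each list (number in brackets) at 12 h in shoots, as filled points without EtOH replicate 2 and open squares with all libraries; vertical lines are the medians over all genes, and the numbers at the right count members called higher and lower without replicate 2. Detoxification (0.79), sulfur assimilation (0.77) and starch metabolism (0.53) hold 9, 4 and 8 members called higher, low sugar and dark response (−0.9) holds 8 called lower, and aliphatic glucosinolates and the nucleolus list move furthest between the symbols.

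Photosynthesis genes were a case in which calls depended on the shallow library. With all libraries LHCA1, PSAG, PSAL and PSAO of photosystem I were higher, 4 of 43, and without EtOH replicate 2 none was called by limma (28 at an unadjusted p under 0.05, and 5 by edgeR). The median was 0.22 and 0.36. PSAO read 21987, 23232 and 24312 against 17997, 5629 and 14548, and LHCA1 read 55806, 59266 and 62486 against 47784, 17008 and 37887. In 34 of the 43 all t-chalcone libraries lay above both deep EtOH libraries and in 0 below, against 20% and 18.3% of all genes.

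Heat shock, flavonoid, proteasome, abscisic acid and salicylic acid genes had no member called with all libraries. Of 20 heat shock genes, 0 were called with all libraries and 0 had an unadjusted p under 0.05. Without EtOH replicate 2, 17 were tested by limma and 4 had an unadjusted p under 0.05. HSFA7A alone was called there, as lower (56.3, 52.6 and 90.7 against 176, 40.5 and 199, adjusted p = 0.0489). Of 19 flavonoid genes, 0 were called by limma in either fit or by edgeR without the shallow library, and 0 had an unadjusted p under 0.05 in either limma fit. TT4, chalcone synthase, whose product is a hydroxylated chalcone, read 708, 391 and 291 against 336, 40.5 and 490 (0.09 without the shallow library, adjusted p = 0.993). The 23 proteasome genes had a median of 0.48 with all libraries and 0.03 without it, with 14 and 1 at an unadjusted p under 0.05 and 1 called by edgeR. Of 20 abscisic acid genes 7 and 4 reached that unadjusted p, with 2 called by edgeR. The 19 salicylic acid and immunity genes had 3 and 0, with 0 by edgeR. EtOH replicate 2 was at its lowest value in 19 of the 20 heat shock genes, all 20 of abscisic acid and all 19 of salicylic acid and immunity. It was there in 13 of the 19 flavonoid and 11 of the 23 proteasome genes, beside 77.8% of all genes. The lack of calls with all libraries therefore cannot show that these genes did not change.

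The effect at 12 h was tested against the effect at 6 h in shoots, with 341 genes differing (221 more positive at 12 h and 120 more negative, 0.966% and 0.524% of all genes), of which 221 and 117 were also called without EtOH replicate 2 (1.12% and 0.592% of the genes in both fits; that fit alone called 2.55% and 4.43%). Of the 93 genes higher and 40 lower at 12 h in both fits, 44 and 14 differed from 6 h in the direction of their 12 h change, in both fits. The 12 h values that selected these genes also enter the difference. That direction was therefore favoured in advance, and the counts add no support. At 6 h itself 5 of the 93 were called higher and 9 lower, beside 0.669% and 0.883% of all genes. The starch genes were among those that differed. PHS1 had a log2 fold change of −0.82 at 6 h, where EtOH libraries averaged 3341 ± 98 (SD, n = 3) and t-chalcone 1892 ± 137, and the 12 h effect was 2.98 ± 0.38 (SE) higher on the log2 scale with all libraries (adjusted p = 1.13e-05) and 2.45 higher without EtOH replicate 2 (adjusted p = 1.61e-09). The 6 h log2 fold changes of SEX1, AMY3, DPE2 and PHS2 were −0.82, −0.69, −0.39 and −0.45, and all 4 genes differed from 12 h in both fits. None of these 6 h decreases was itself called, nor was that of PHS1 (adjusted p = 0.166, limma). The clock genes PRR9 and GI differed by 6.64 and 3.99 (adjusted p = 4.4e-09 and 2.7e-09), and RVE2 by −4.35 (adjusted p = 0.00147) and without EtOH replicate 2 by −5.52 (adjusted p = 1.32e-09). At 6 h PRR9 read 0.784 to 1.46 with t-chalcone and 49.3 to 55.7 with EtOH, and GI read 194 to 265 and 1522 to 1628. The 6 h groups differed in much else: photosynthesis genes summed to 277213 to 346474 with t-chalcone and 743681 to 792646 with EtOH, while Calvin cycle genes summed to 301638 to 391149 and 151945 to 245686. The part of these 6 h differences in the tests against 12 h was not tested.

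**Figure D4:**
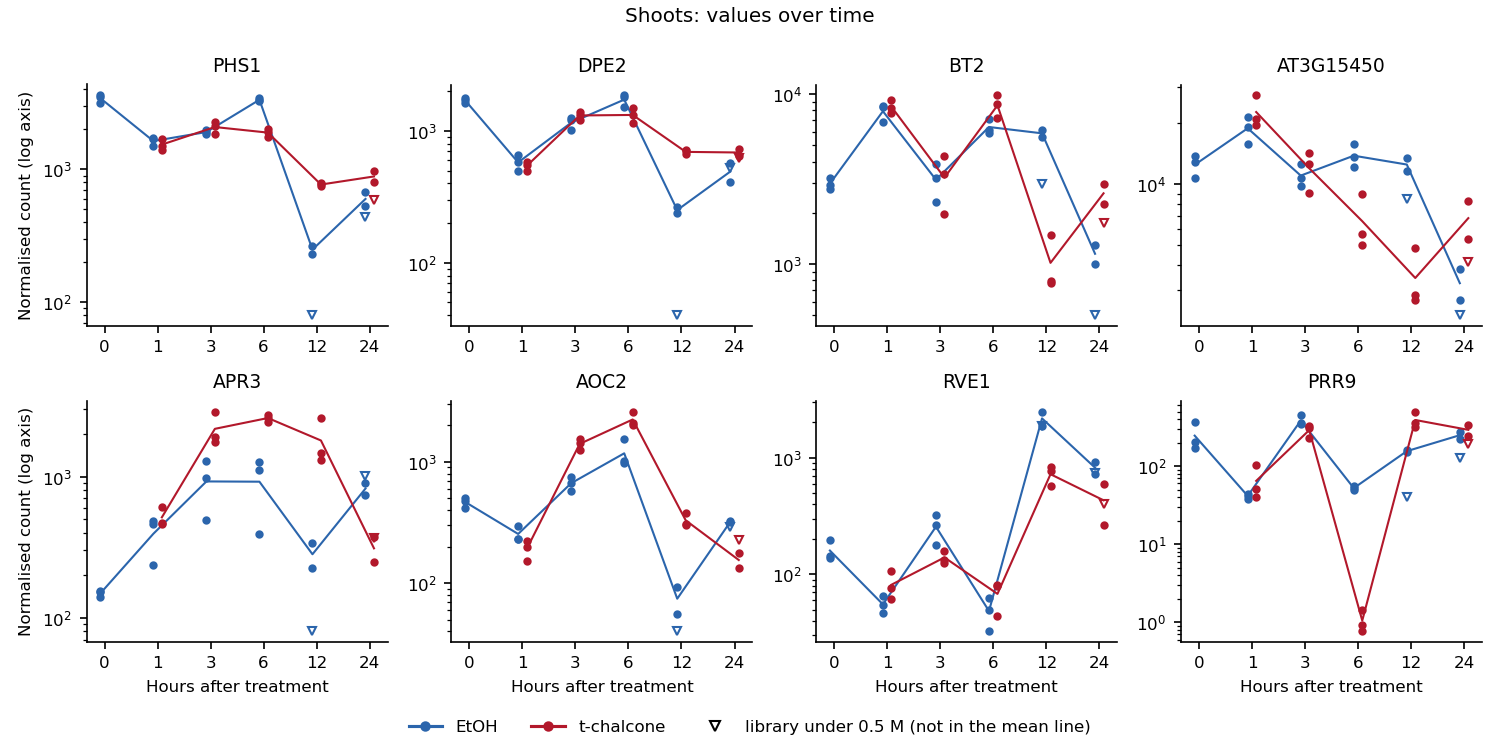
Normalised counts of 8 genes in shoots at 0 to 24 h after treatment, on log axes that differ between panels; points are libraries, lines join the means of libraries over 0.5 M, triangles are libraries under 0.5 M, blue is EtOH and red t-chalcone. PHS1 and DPE2 fall in EtOH from 6 to 12 h to 250 and 251, with t-chalcone at 769 and 693, while BT2 and AT3G15450 stay high in EtOH at 12 h (5861 and 12510) and are lower in t-chalcone (1013 and 3456).

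Of the times sampled, 12 h held the lowest EtOH mean of PHS1 and DPE2. Over libraries of at least 0.5 M, PHS1 averaged 3434 at 0 h, in libraries whose values were deposited both as EtOH and as untreated. With EtOH it averaged 3341 after 6 h, 250 after 12 h and 600 after 24 h, and with t-chalcone 1892, 769 and 886. DPE2 averaged 1727, 251 and 491 with EtOH and 1321, 693 and 686 with t-chalcone at the same 3 times. The t-chalcone libraries thus also stood lower at 12 h than at 6 h, by less than the EtOH libraries. BT2 averaged 6385, 5861 and 1146 with EtOH and 8563, 1013 and 2599 with t-chalcone. RVE1 averaged 48.6, 2166 and 819 with EtOH and 68.1, 721 and 431 with t-chalcone.

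At 24 h, 428 genes had a different effect from 12 h (298 more positive at 12 h, 1.3%, and 130 more negative, 0.568%), and 296 and 130 of them were also called without EtOH replicate 2 (1.5% and 0.658% of the genes in both fits; that fit alone called 3.97% and 3.66%). At 24 h 1 library of each group was under 0.5 M, and without all libraries under that depth each difference from 24 h named here as called with all libraries was still called. Of the 93 and 40 genes, 32 and 25 differed in both fits in the direction of their 12 h change, which their selection at 12 h again favoured in advance. At 24 h itself 7 of the 93 were called higher and 4 lower, beside 0.533% and 0.612% of all genes. APR3 and APR1 had effects of −1.44 and −1.87 at 24 h, and the 12 h effects were 4.66 and 3.96 higher (adjusted p = 0.000173 and 0.000442, limma). AOC2 had −0.83 at 24 h and a difference of 3.27 (adjusted p = 2.04e-05), and LOX2 −0.9 and 2.57 (adjusted p = 0.00255). LOX2 and APR3 were already called higher at 6 h, by 1.81 and 1.66 (adjusted p = 0.00108 and 0.0429, limma). Neither was called as different between 6 h and 12 h (adjusted p = 0.872 and 0.23). APR1 and AOC2 were not called at 6 h (0.99 and 0.95, adjusted p = 0.361 and 0.0553). BT2 and AT3G15450 had 1.38 and 0.99 at 24 h and differences of −3.65 and −2.71 (adjusted p = 8.51e-05 and 0.000243). Of these genes, APR1 and BT2 were themselves called at 24 h (adjusted p = 0.0184 and 0.0245, limma). APR3, AOC2, LOX2 and AT3G15450 were not (adjusted p = 0.109, 0.125, 0.196 and 0.0554). The low sugar and dark list had 6 members called higher and 0 lower at 24 h with a median of 0.91, beside −0.9 at 12 h without the shallow library. At 6 h its median was already −0.76, with 0 members called higher and 3 lower. Outside the list, AT3G15450 was called lower at 6 h as well (−1.11, adjusted p = 0.0198, limma). Of the starch genes, PHS1 and PHS2 had smaller effects at 24 h, 0.52 and 0.6, with differences of 1.64 and 1.25 (adjusted p = 0.0231 and 0.017), while SEX1 was not called as different from 24 h in either fit, and AMY3 and DPE2 only without EtOH replicate 2 (adjusted p = 0.0133 and 0.001).

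**Figure D5:**
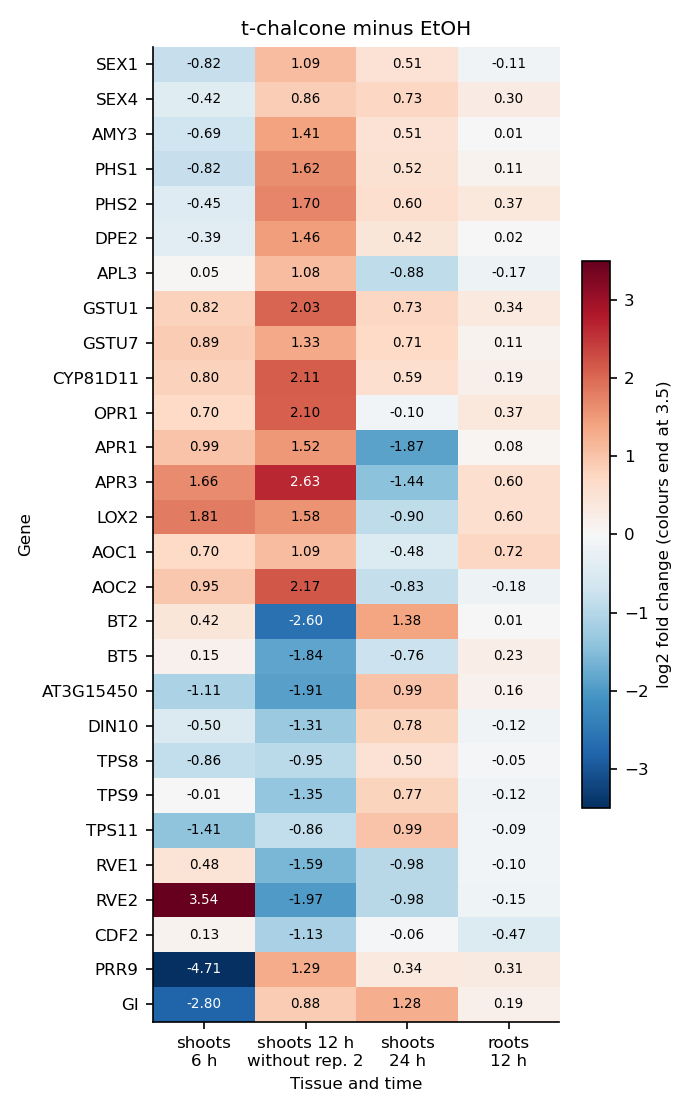
Log2 fold change of t-chalcone against EtOH for 28 genes (rows) in shoots at 6, 12 and 24 h and in roots at 12 h (columns), the 12 h shoot column without EtOH replicate 2; red is higher and blue lower with t-chalcone, and colours end at 3.5 in either direction. The starch genes from SEX1 to DPE2 are positive at 12 h and negative at 6 h, BT2 and AT3G15450 are negative at 12 h and positive at 24 h, and the root column holds values between −0.47 and 0.72. None of these starch genes was called at 6 h, and AT3G15450 was not called at 24 h.

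In roots at 12 h, 1 gene was called higher and 1 lower in the fit of all 66 libraries (0.00437% each). Shoot and root effects differed for 34 genes, 29 more positive in shoots (0.127%) and 5 more negative (0.0218%), of which 15 and 3 were also called without EtOH replicate 2 (0.0655% and 0.0131%; that fit alone called 0.101% and 0.0437%). Of the 93 and 40 genes, 14 and 3 were among those called in both fits, and here too their selection at 12 h favoured this in advance. PHS1, PHS2, DPE2, AMY3 and SEX1 were more positive in shoots in both fits. PHS1 averaged 151 ± 29 with t-chalcone and 138 ± 5 with EtOH in roots (SD, n = 3), an effect of 0.11, and the difference from shoots was 2.05 ± 0.31 (SE; adjusted p = 0.000396, limma) with all libraries and 1.51 (adjusted p = 3.78e-05) without EtOH replicate 2. BT2, with an effect of 0.01 in roots, was more negative in shoots by −2.28 (adjusted p = 0.00417) and −2.61 (adjusted p = 8.62e-05). Of the detoxification and glutathione transferase members called at 12 h, none had a difference between shoots and roots that was called in both fits. UGT73B5, GSTU1 and OPR1 were more positive in shoots with all libraries (adjusted p = 0.017, 0.0203 and 0.0295, limma). Without EtOH replicate 2 they missed the threshold (adjusted p = 0.0729, 0.0583 and 0.0971). GSTU2 was called as more positive in shoots only without that library (2.53, adjusted p = 0.0222). GSTU1 and OPR1 had effects of 0.34 and 0.37 in roots.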

How the data were processed

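RNA-seq read counts per gene were scaled by the authors with DESeq2 1.14.1 and TAIR10 was the genome build, per the submitters' processing notes; the sources used here do not give the aligner, the counter or the strand setting. The deposited values are a signal, counts divided by a size factor per library, and whole numbers were recovered from them to within 0.01. No library held a value of 0, and its lowest value was recovered as 1. The recovered numbers and their sums may therefore hold an added 1 per gene. Of 72 columns, the 6 labelled untreated at 0 h were identical to the EtOH columns at 0 h and were counted once. The deposited values were tested with limma 3.58.1 on log2(value + 1), with 1 mean per group and all 33 shoot libraries sharing the spread. The comparison with roots used all 66. A filter asked for at least 10 in 3 libraries. With all shoot libraries it had no effect, and 22884 genes were tested with or without it. A gene without reads still stood at 40.5, 17.4 and 21 in the 3 shoot libraries under 0.5 M, and so passed. Shares of the genes tested with all libraries may therefore count genes without reads. Without EtOH replicate 2 the filter left 19762 genes. Adjusted p-values are Benjamini-Hochberg over all genes, threshold 0.05. Adding 1 before the logarithm makes a fold change understate that of low genes. With all libraries, the lowest value of 40.5 in EtOH replicate 2 can instead enlarge a decrease of a low gene. COR27 was at −2.58 with all libraries and −1.53 without EtOH replicate 2. edgeR 4.0.16 and DESeq2 1.42.0 on recovered numbers, other scalings, filters, pseudocounts and sample sets were alternatives. The method was tested on simulated data.

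The text names the 15 largest increases and decreases among called genes whose groups did not overlap and whose higher group averaged 100 or more, and members of the lists called in either fit; other genes named were chosen after their values were seen. The comparison, its members and the 37 lists, of 686 genes in all, were chosen with earlier results of these data known. Names came from RefSeq's TAIR10.1 tables, which held 22708 of 22884 genes, and upstream sequences from the same assembly. Neighbouring or near-identical genes may share reads, and reads of a gene and an antisense partner cannot be told apart.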

Additional observations from a re-analysis of the deposited data

Results flagged for a closer look

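Listed here are those of the genes named in the text and called at 12 h with all libraries for which the effect at 12 h in shoots differed by limma (adjusted p under 0.05 with all libraries, without EtOH replicate 2 and without the libraries under 0.5 M) from that at 6 h or 24 h in shoots or at 12 h in roots. Values are log2 differences with all libraries. The 12 h values by which these genes were called also enter each difference, so differences in the direction of the 12 h change were favoured in advance. Genes called at 12 h only without EtOH replicate 2, such as RVE2 and BAM9, are not listed here.

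Against 6 h, 20 of these named genes differed, by 1.49 to 6.64 in size. The clock genes PRR9 and GI differed by 6.64 and 3.99 and RVE1 by −2. At 6 h itself PRR9 and GI had effects of −4.71 and −2.8, both called, which make up much of their differences. Photosystem I genes LHCA1, PSAO, PSAG and PSAL differed by 3.56, 2.45, 1.75 and 1.56. Their effects at 6 h were −2.65, −1.43, −0.93 and −0.86, each called. None of them was called at 12 h without EtOH replicate 2. The starch genes PHS1, AMY3, SEX1, DPE2, PHS2 and SEX4 differed by 2.98, 2.96, 2.79, 2.72, 2.3 and 1.58. RPP4 differed by 3.56, FBA5 by 3.32, AT1G13930 by 3.31, FUM2 by 2.55 and AOC2 by 1.49. BT2 and OXS3 differed by −2.69 and −2.3.

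Against 24 h, 21 of these named genes differed, by 1.25 to 4.66 in size. APR3 and APR1 of sulfate reduction differed by 4.66 and 3.96, FBA5 by 4.05, and SOT17 by 3.24. AOC2, LOX2 and AOC1 of jasmonate synthesis differed by 3.27, 2.57 and 1.94. AT5G16980, OPR1 and DHAR2 differed by 2.64, 2.43 and 2.37, FUM2 by 2.45, APL3 by 2.23, PHS1 by 1.64 and PHS2 by 1.25. BT2 differed by −3.65, AT3G15450 by −2.71, AT5G22920 by −2.65, AT2G05540 by −2.48, AT2G20670 by −2.47, AT3G54880 by −2.28 and AT1G50910 by −1.96. At 24 h, 1 library of each group held under 0.5 M.

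Against roots, 10 of these named genes differed, by 1.48 to 2.62 in size. APR3 and AOC2 differed by 2.62 each, DPE2 by 2.31, AMY3 by 2.26, SEX1 by 2.08, PHS1 by 2.05 and PHS2 by 1.48. BT2, AT5G22920 and AT3G15450 differed by −2.28, −2.24 and −1.88.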

How the results depend on the processing

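With all libraries 118 genes were higher and 56 lower. The counts were 377 and 453 without the libraries under 0.5 M, 207 and 87 with a pseudocount of 50, 221 and 86 for genes with a mean of at least 50, 1542 and 1709 with array weights, 279 and 276 by edgeR, 330 and 926 by DESeq2, and 501 and 680 by edgeR without EtOH replicate 2. With only the 6 libraries at 12 h limma called 0 and 0, with 489 of 18415 genes tested at an unadjusted p under 0.05. Over genes above the lowest value in EtOH replicate 2, an alternative chosen after seeing the data, 231 were lower. Leaving out each of the 6 libraries in turn gave 16 to 6459 higher and 6 to 2476 lower.

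Differences from 6 h, 341 with all libraries, numbered 2841 without the libraries under 0.5 M, 6512 with array weights, 1763 by edgeR, 589 over genes above that lowest value and 182 to 1982 with a library left out. Those from 24 h, 428 with all libraries, numbered 2279, 0 with array weights, 783 by edgeR and 93 to 3116. Those from roots, 34 with all libraries, numbered 212, 54 and 180 with pseudocounts of 10 and 50, 1562 with array weights, 216 by edgeR and 5 to 7317. The cause of these changes was not tested.

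Over all alternatives, 936 values of the named genes called with all libraries kept the call, 162 lost it and 0 changed sign. Of named genes not called, 26 values changed sign. Without EtOH replicate 2, without libraries under 0.5 M, with array weights, by edgeR, by DESeq2 and by edgeR without replicate 2, in that order, log2 fold changes were −0.66, −0.66, −0.61, −0.32, −0.31 and −0.66 for RVE4, −0.93, −0.93, −0.87, −0.72, −0.69 and −0.92 for TPS10, −1.16, −1.16, −1.15, −0.81, −0.72 and −1.14 for MCCA, and −0.54, −0.54, −0.56, −0.34, −0.31 and −0.56 for PES, each above 0 with all libraries. TPS9 was at 0.05 and 0.06 without EtOH replicate 1 or 3. With each library left out, ranges were −0.66 to 0.82 for RVE4, −1.35 to 0.06 for TPS9, −0.93 to 1.19 for TPS10, −1.16 to 1.54 for MCCA and −0.54 to 1.78 for PES. No paired analysis was possible because the labels carry no replicate numbers and the numbers used here follow accession order. The depth of EtOH replicate 2 limits statements at all levels: 60.1% of genes at 100 or more in both deep EtOH libraries stood at its lowest value, as did 14% at 1000 or more and 4.18% at 2000 or more.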
